A study of Rattus norvegicus with 9 samples.

Results

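The 10 genes described here encode P2X and P2Y receptors for extracellular nucleotides, and were picked by symbol as P2rx2, P2rx3, P2rx4, P2rx5, P2rx6, P2rx7, P2ry1, P2ry2, P2ry12 and P2ry14 from the 20413 genes of the expression table. RNA-Seq was carried out on right (ipsilateral) L4–6 dorsal root ganglia (DRGs), where the sensory neurons of the hind limb have their somata among glial and immune cells. The animals were male Sprague Dawley rats of 8 to 10 weeks, with 3 rats and 3 libraries in each of 3 groups, all collected on day 10. In the chronic post-ischemia pain (CPIP) group, a model of complex regional pain syndrome type I, a tight O-ring kept the right hind paw ischemic for 3 h before reperfusion. The Sham group, named the control group in the sample labels, carried an O-ring that was cut open and so did not stop the blood flow. The CPIP+EA group had the same ischemia and then daily electroacupuncture (EA) at 100 Hz for 30 min over 10 days, at the acupoints ST36 and BL60 of both hind limbs. No group with needles and no current is among the 9 libraries.

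ATP leaves stressed, active or dying cells and acts on a pair of families of membrane receptors. P2X receptors are cation channels built of several subunits, which ATP opens directly, and P2Y receptors couple to G proteins and respond to ATP, ADP, UTP, UDP or UDP-sugars. In DRGs the P2X3 subunit is a known marker of small nociceptive neurons, alone or in a channel shared with P2X2, while P2X7 is known from satellite glia and macrophages and P2Y12 from microglia and glia. The study compared the groups to find genes that change with CPIP and with EA, and the comparisons below ask that of the nucleotide receptors.

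RefSeq promoters of the rat build GRCr8 were matched for 7 of the 10 genes, with 8 start sites. The 250 bases before the start are shown for P2rx3, the most abundant of the genes, with a pair of start sites, and for P2rx6, a subunit whose CPIP libraries all lay below the Sham libraries. All 3 stretches are written 5′ to 3′ on the minus strand, the strand of the gene, and capitals mark the motifs found.
P2rx3, first start site, chr3:90531316-90531565: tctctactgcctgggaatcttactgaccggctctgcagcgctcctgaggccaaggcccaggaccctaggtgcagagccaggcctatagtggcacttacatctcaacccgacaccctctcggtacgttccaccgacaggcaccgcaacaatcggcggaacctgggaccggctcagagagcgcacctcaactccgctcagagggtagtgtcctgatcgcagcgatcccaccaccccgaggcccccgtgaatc
P2rx3, second start site, chr3:90529310-90529559: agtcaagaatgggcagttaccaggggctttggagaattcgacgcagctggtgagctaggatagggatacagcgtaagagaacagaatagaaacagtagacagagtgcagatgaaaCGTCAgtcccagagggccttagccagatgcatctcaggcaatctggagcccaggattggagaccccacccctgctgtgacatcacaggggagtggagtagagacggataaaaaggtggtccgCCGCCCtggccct
P2rx6, chr11:96954204-96954453: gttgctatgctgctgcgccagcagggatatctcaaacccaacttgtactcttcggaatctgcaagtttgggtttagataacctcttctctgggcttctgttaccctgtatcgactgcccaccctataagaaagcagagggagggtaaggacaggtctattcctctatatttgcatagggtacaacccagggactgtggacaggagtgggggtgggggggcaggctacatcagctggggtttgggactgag
The motifs searched on both strands were the GC box GGGCGG, the TATA box TATAAA, the AP-1 site TGACTCA, the CRE core TGACG and the RUNX site TGTGGT. Among 33469 rat promoters of the same length, 30.5% held the GC box, 12.9% the TATA box, 4.05% the AP-1 site, 18.2% the CRE core and 14.5% the RUNX site. The second P2rx3 stretch held a CRE core on the opposite strand that began 135 bases before the start and a GC box on the opposite strand at 13 bases, whereas the first P2rx3 stretch and the P2rx6 stretch held none of the 5 motifs in these letters. The GC content was 62.4% and 54.4% in the P2rx3 stretches and 52.4% in P2rx6, beside a median of 51.2% over all promoters.

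Expression was given as FPKM, a read density corrected for the length of the gene and the size of the library, so levels of different genes can be set side by side. The gene models behind these lengths are not given in the sources used here, so levels across genes are approximate. Groups were compared with limma on log2(FPKM + 0.5) over 17187 genes, and a gene was called at an adjusted p under 0.01 with a change of at least 1.5-fold. All 10 receptor genes passed the filter on low values. Because of the added 0.5, the fitted fold change of a low gene is smaller than the ratio of its FPKM values. The summed FPKM of the 9 libraries lay between 445647 and 482940, and between 18279 and 18456 genes were above 0. The calls over all genes numbered 61 for CPIP against Sham, 83 for CPIP+EA against Sham and 0 for CPIP+EA against CPIP, where 738 genes (4.29%) had an unadjusted limma p under 0.05.

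P2rx3 was the dominant receptor gene of the DRG, and the other receptors lay far below it. Its mean over the 9 libraries was 141 FPKM, above 96.7% of the genes tested, and its lowest library (113.9 FPKM) was far above the highest library of any other receptor (25.36 FPKM, P2rx4). Behind it came P2rx4 (16.2 FPKM), the ATP-gated channel also known from activated microglia, P2rx6 (15.1 FPKM), a subunit that works mainly in mixed channels, P2rx7 (11.8 FPKM), the channel linked to inflammasome activation, and the Gq-coupled receptors P2ry2 (10.5 FPKM) and P2ry1 (10.2 FPKM), for ATP or UTP and for ADP. The ranges of each pair of neighbours in this order overlapped, though every P2rx6 library (11.94 to 18.50 FPKM) lay above every P2ry1 library (9.37 to 11.03 FPKM). P2rx5 (6.79 FPKM), another channel subunit, P2rx2 (4.76 FPKM) and P2ry12 (3.68 FPKM), a Gi-coupled ADP receptor, formed the next group with overlapping neighbours. The highest library of P2rx5 (8.35 FPKM) lay below the lowest of P2ry1 (9.37 FPKM). This order is that of the means over all 9 libraries. In Sham alone, every P2rx2 library (3.01 to 3.15 FPKM) lay below every P2ry12 library (3.73 to 4.28 FPKM), and the mean of P2rx4 (14.8 FPKM) was below that of P2rx6 (17.8 FPKM), with overlapping ranges. P2ry14, the receptor for UDP-glucose, was lowest at 1.88 FPKM, with its highest library at 2.32 FPKM and the lowest P2ry12 library at 2.80 FPKM.

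**Figure D1:**
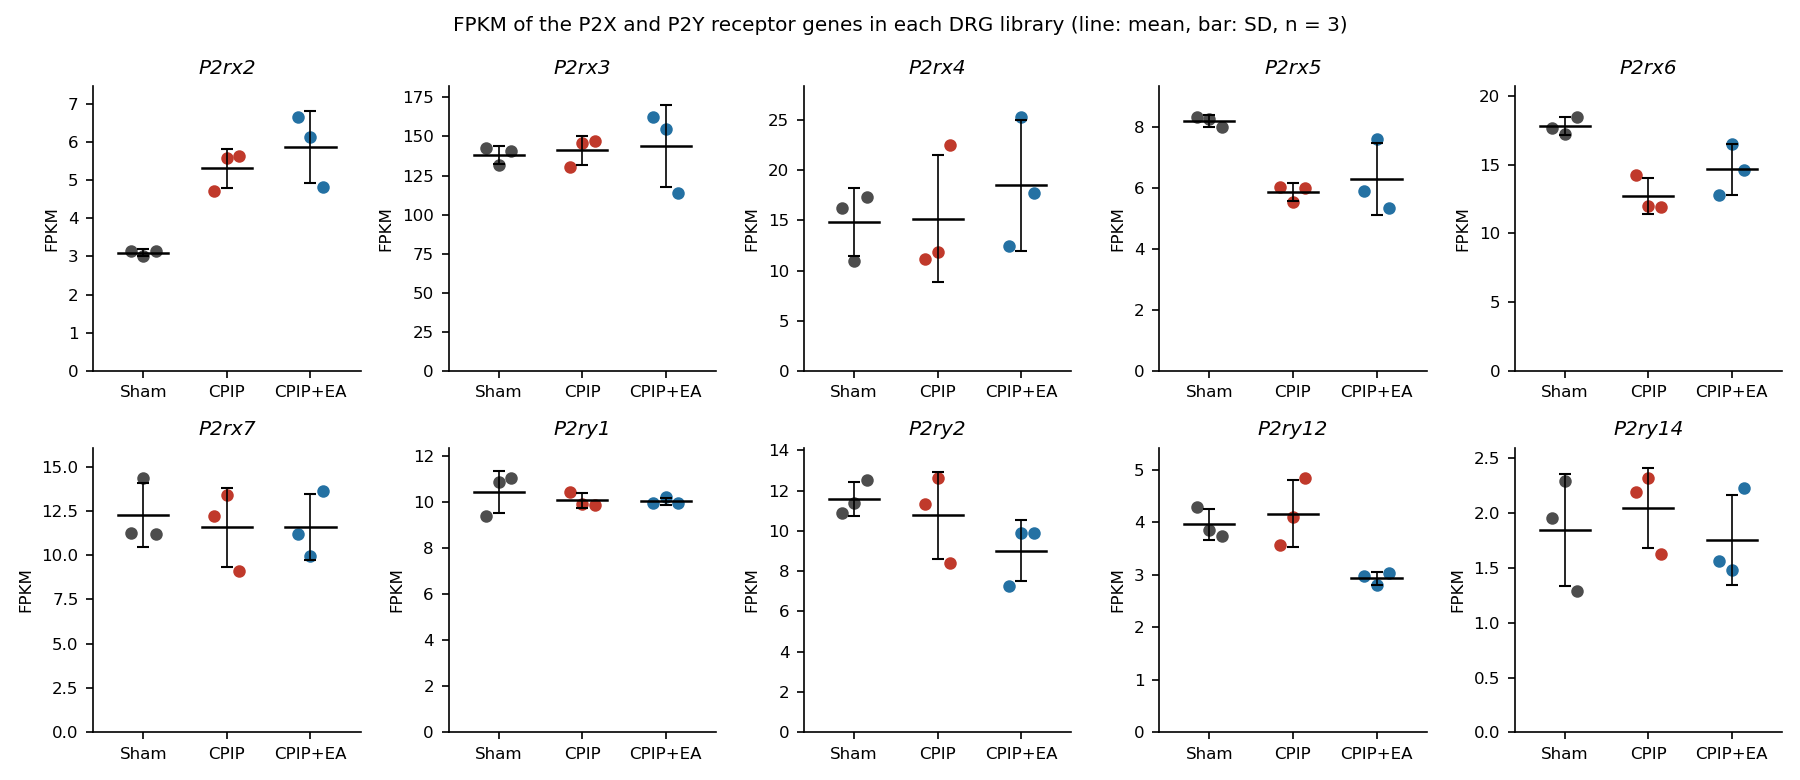
FPKM (vertical axes, each starting at 0) of the 10 receptor genes in the 9 DRG libraries, 1 panel a gene, with 1 point a library in Sham, CPIP and CPIP+EA, a line at the mean and a bar for the SD (n = 3). The P2rx2 points are all higher in CPIP and CPIP+EA (4.73 to 6.67) than in Sham (3.01 to 3.15), while the P2rx5 and P2rx6 points are all lower, and the P2rx4 points spread from 10.97 to 25.36.

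Between CPIP and Sham, 3 of the 10 genes had libraries that did not overlap, P2rx2 with higher and P2rx5 and P2rx6 with lower levels in CPIP, and none was called. Over all genes tested, 0.355% were called, 0.71% had an adjusted p under 0.05 and 15.9% had libraries that did not overlap, 7.98% with higher and 7.9% with lower levels. P2rx2, the subunit that pairs with P2X3 and gives the channel a slower desensitization, measured 3.15, 3.01 and 3.15 FPKM in the Sham libraries and 4.73, 5.57 and 5.64 FPKM in the CPIP libraries. The lowest CPIP library was thus well above the highest Sham library. The means were 3.10 ± 0.081 FPKM (SD, n = 3) in Sham and 5.31 ± 0.506 FPKM (SD, n = 3) in CPIP. The fitted log2 fold change was 0.69 (SE 0.12, 95% interval 0.41 to 0.96), a 1.61-fold difference, with an adjusted limma p of 0.0482. No other of the 10 genes had an adjusted p under 0.05 here, and P2rx2 missed the threshold of 0.01. Over 20 alternative settings its adjusted p ran from 0.0140 to 0.207 and was under 0.05 in 7.

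P2rx5 and P2rx6 had lower values in CPIP. P2rx5 measured 8.35, 8.26 and 8.0 FPKM in Sham and 6.05, 5.53 and 6.01 FPKM in CPIP, a log2 fold change of -0.45 (SE 0.12) with an adjusted limma p of 0.194. P2rx6 measured 17.70, 17.20 and 18.50 FPKM in Sham and 14.27, 12.00 and 11.94 FPKM in CPIP, a log2 fold change of -0.47 (SE 0.10) with an adjusted limma p of 0.102. For both genes every CPIP library was below every Sham library, yet neither passed the test across all genes. An unadjusted p under 0.05 was reached by P2rx2, P2rx5 and P2rx6, that is 3 of the 10, beside 8.66% of all genes tested. The median log2 fold change of the 10 genes was -0.03, beside -0.01 over all genes tested.

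The other 7 genes had overlapping libraries and log2 fold changes of at most 0.13 in size between CPIP and Sham. P2rx3 measured 142.59, 131.83 and 140.76 FPKM in Sham and 130.46, 145.71 and 147.18 FPKM in CPIP, and the 95% interval of its log2 fold change ran from -0.25 to 0.31. A change of P2rx3 by 1.5-fold thus lay outside the interval. P2rx7 measured 11.26, 14.35 and 11.22 FPKM in Sham and 12.23, 13.39 and 9.09 FPKM in CPIP, with a log2 fold change of -0.09. P2ry1 was the most even of all the genes, between 9.37 and 11.03 FPKM over the 9 libraries, a ratio of 1.18 between the highest and the lowest.

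When the mean of CPIP and CPIP+EA was set against Sham, P2rx2 was called and none of the other 9 genes was, beside 0.599% of all genes tested. This comparison reuses the libraries of the others and was chosen with earlier results of these data known. In CPIP alone and in CPIP+EA alone against Sham, P2rx2 was not called. The CPIP+EA libraries measured 6.67, 6.13 and 4.83 FPKM, so that P2rx2 was higher in all 6 libraries of rats with CPIP than in any Sham library. It rose by 0.75 on the log2 scale (SE 0.11, 95% interval 0.51 to 0.99), or 1.68-fold, with an adjusted limma p of 0.00935. The call was close to the threshold and held in 4 of 19 alternatives, over which the adjusted p ran from 0.00245 to 0.0587. It was lost when any 1 library other than CPIP+EA replicate 3 was left out, with adjusted p-values of 0.0459, 0.0587 and 0.0461 without Sham replicates 1, 2 and 3, of 0.0152, 0.0277 and 0.0289 without CPIP replicates 1, 2 and 3, and of 0.0186 and 0.0273 without CPIP+EA replicates 1 and 2. The log2 fold change in the leave-one-out fits stayed between 0.70 and 0.81. In this comparison P2rx5 had a log2 fold change of -0.41 (limma, adjusted p = 0.107) and P2rx6 of -0.37 (limma, adjusted p = 0.0915), and 7.27% of all genes had Sham libraries apart from all other libraries, as did 3 of the 10 receptor genes.

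**Figure D2:**
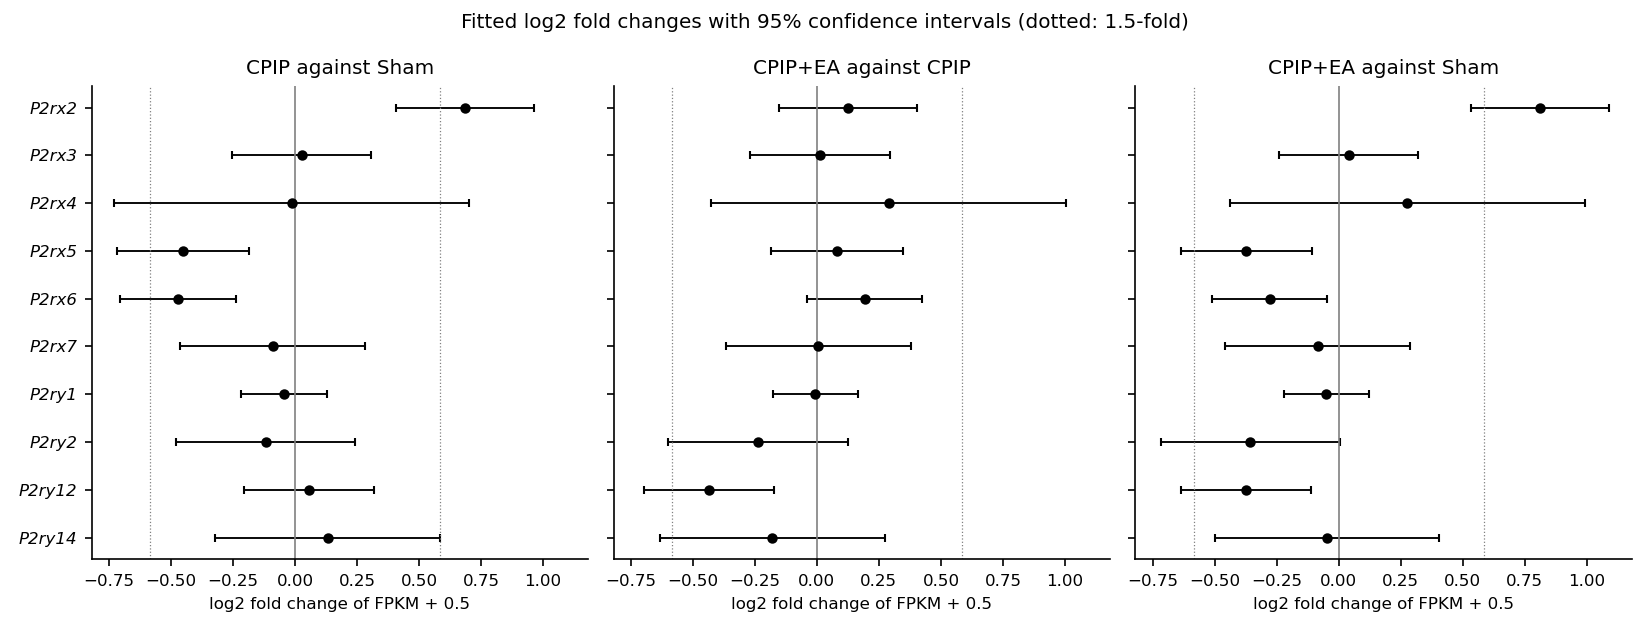
Fitted log2 fold changes of FPKM + 0.5 (horizontal axis) with 95% confidence intervals for the 10 receptor genes (rows) in 3 comparisons, CPIP against Sham, CPIP+EA against CPIP and CPIP+EA against Sham, which share libraries, and dotted lines at 1.5-fold. P2rx2 lies to the right of 0 against Sham in both panels (0.69 and 0.81), P2rx5 and P2rx6 lie to the left, and P2ry12 lies to the left in CPIP+EA against CPIP (-0.43).

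Within a library, the make-up of the P2X pool does not depend on how the library was scaled. The pool is taken here as the 6 P2X genes described, without P2rx1 (0.34 to 1.2 FPKM over the libraries). P2rx3 held 72.0% of the summed FPKM of the 6 P2X genes on average, between 67.0% and 76.9% over the 9 libraries. The Sham libraries gave P2rx2 a share of 1.60% ± 0.0230, the CPIP libraries 2.77% ± 0.115 and the CPIP+EA libraries 2.92% ± 0.199 (SD, n = 3 each). The shares of P2rx5 were 4.22%, 3.07% and 3.13% in the same order, and those of P2rx6 were 9.15%, 6.69% and 7.38%. The summed P2X level itself was 195 ± 7.80, 192 ± 11.9 and 201 ± 27.0 FPKM (SD, n = 3 each), so the totals of the groups overlapped, while for P2rx2, P2rx5 and P2rx6 the shares of all Sham libraries lay apart from those of all other libraries.

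The ratio of P2rx2 to P2rx3, the partners of the mixed P2X2/3 channel, is given as a description chosen with the values known, and it was not tested. P2rx2 stood at 2.21, 2.28 and 2.24 per 100 of P2rx3 in the Sham libraries, at 3.63, 3.82 and 3.83 in the CPIP libraries and at 4.10, 3.96 and 4.24 in the CPIP+EA libraries. The CPIP values of P2rx2 itself overlapped those of CPIP+EA. In CPIP+EA replicate 3, both genes were the lowest of their group (4.83 FPKM for P2rx2 and 113.90 FPKM for P2rx3) and their ratio was the highest. The ratio counts transcripts in the whole ganglion and does not show that both subunits were in the same cells.

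**Figure D3:**
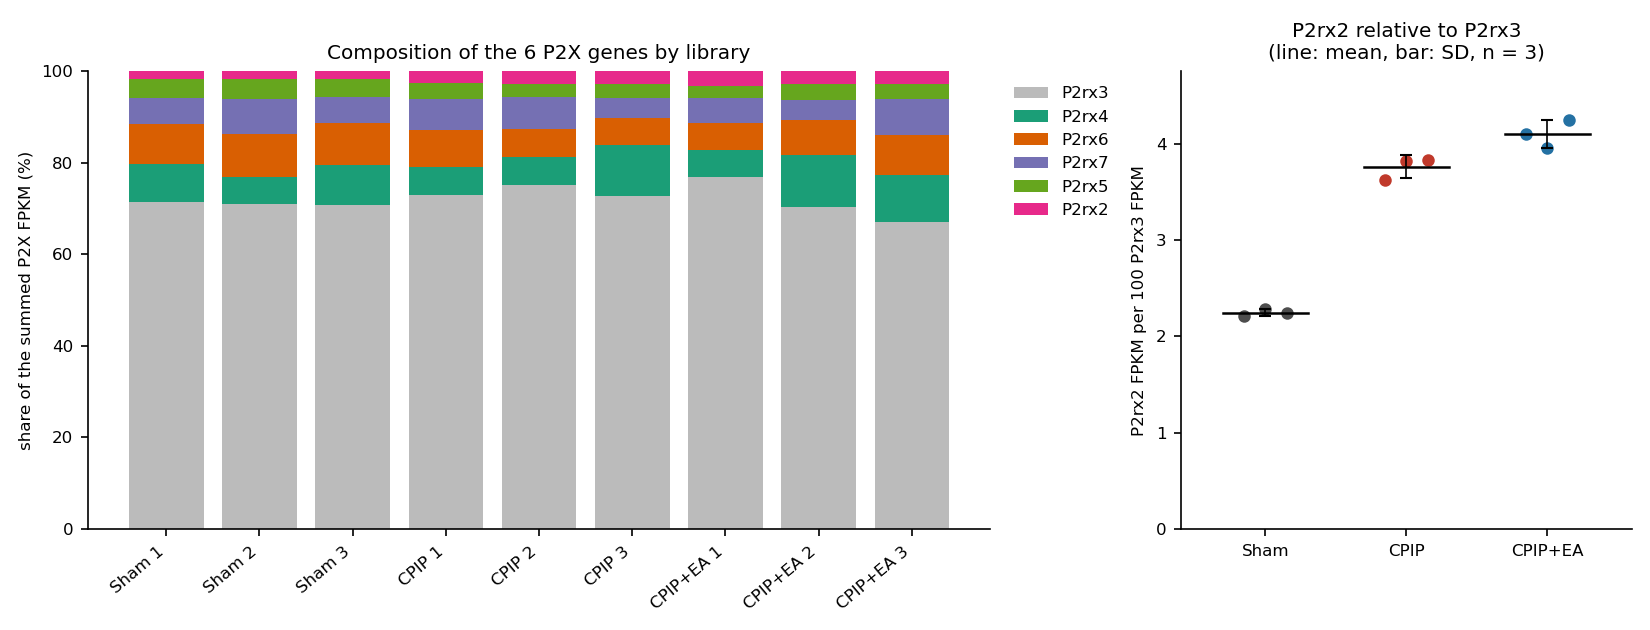
Left, the share (%) of each of the 6 P2X genes in their summed FPKM in each of the 9 libraries, as stacked bars that add to 100. Right, P2rx2 FPKM per 100 P2rx3 FPKM, 1 point a library, with a line at the mean and a bar for the SD (n = 3): P2rx3 fills 67.0 to 76.9% of every bar, and the P2rx2 ratio is 2.21 to 2.28 in Sham, 3.63 to 3.83 in CPIP and 3.96 to 4.24 in CPIP+EA.

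Between CPIP+EA and CPIP, none of the 10 genes was called, with adjusted limma p-values between 0.996 and 0.999, and 0% of all genes were. P2ry12 was the only receptor gene whose libraries did not overlap, beside 3.4% of all genes that were lower in the same way. It measured 3.56, 4.09 and 4.84 FPKM in CPIP and 2.97, 2.80 and 3.03 FPKM in CPIP+EA, so every CPIP+EA library was lower, while the Sham libraries at 4.28, 3.86 and 3.73 FPKM lay within the CPIP range. The log2 fold change was -0.43 (SE 0.12, 95% interval -0.69 to -0.17), with an unadjusted limma p of 0.00457 that ranked 68th of the 17187 genes and an adjusted p of 0.996. In 20 of 20 alternatives the unadjusted limma p of P2ry12 was under 0.05. Over all genes, 2.07% were lower at an unadjusted limma p under 0.05 in this comparison, as was 1 of the 10 receptor genes.

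For the genes that differed most between CPIP and Sham, the EA libraries gave no called difference from CPIP. P2rx2 differed by 0.13 on the log2 scale (95% interval -0.15 to 0.40). That value was 0.04 when CPIP+EA replicate 1 was left out. With CPIP+EA replicate 3 left out it was 0.25, with an unadjusted limma p of 0.0426 and an adjusted p of 0.683. P2rx5, at 5.91, 7.62 and 5.34 FPKM in CPIP+EA, differed by 0.08 (SE 0.12). P2rx6, at 12.80, 16.53 and 14.64 FPKM in CPIP+EA, differed by 0.19 (SE 0.10), and its CPIP+EA mean of 14.7 ± 1.87 FPKM lay between those of CPIP (12.7 ± 1.33 FPKM) and Sham (17.8 ± 0.656 FPKM). Without CPIP+EA replicate 2 the P2rx6 difference was 0.11 and without CPIP+EA replicate 1 it was 0.28, the latter with an unadjusted limma p of 0.0193 and an adjusted p of 0.670. P2rx3 measured 162.77, 154.95 and 113.90 FPKM in CPIP+EA and had a 95% interval of -0.27 to 0.29 against CPIP.

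Between CPIP+EA and Sham, which shares its Sham libraries with the first comparison, none of the 10 genes was called, beside 0.483% of all genes, and 5 had libraries that did not overlap, 1 with higher and 4 with lower levels, beside 16.2% of all genes, with 8.87% higher and 7.32% lower. P2rx2 was 0.81 higher on the log2 scale (SE 0.12) with an adjusted limma p of 0.0140, which reached the threshold for a call only without CPIP+EA replicate 3, at 0.00487. No other of the 10 genes had an adjusted p under 0.05, beside 1.31% of all genes. The adjusted p of P2rx2 was under 0.05 in 14 of 20 alternatives, and its largest value was 0.0671. The other 4 genes were lower in every CPIP+EA library, with log2 fold changes of -0.37 for P2rx5 (limma, adjusted p = 0.229), -0.28 for P2rx6 (adjusted p = 0.310), -0.37 for P2ry12 (adjusted p = 0.218) and -0.36 for P2ry2 (adjusted p = 0.414), which was -0.22 without CPIP+EA replicate 1. P2ry2 measured 10.89, 11.38 and 12.52 FPKM in Sham, 11.31, 12.62 and 8.39 FPKM in CPIP and 7.28, 9.89 and 9.89 FPKM in CPIP+EA. The single low CPIP library thus lay among the CPIP+EA values.

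P2rx4 and P2rx7 are next to each other in the RefSeq gene order and both act in glial and immune cells. P2rx4 was the most variable receptor gene, at 16.28, 10.97 and 17.29 FPKM in Sham, 11.20, 11.88 and 22.49 FPKM in CPIP and 12.41, 25.36 and 17.71 FPKM in CPIP+EA, a ratio of 2.31 between the highest and the lowest library. Its spread within groups left a 95% interval of -0.73 to 0.70 for CPIP against Sham and of -0.43 to 1.0 for CPIP+EA against CPIP, where the log2 fold change of 0.29 ran from 0.04 without CPIP+EA replicate 2 to 0.60 without CPIP replicate 3. The first of these still holds a 1.5-fold difference of P2rx4 in either direction. The libraries with the highest P2rx4, CPIP+EA replicate 2 and CPIP replicate 3, had the lowest P2rx7, at 9.94 and 9.09 FPKM. P2rx7 in CPIP+EA was 11.17, 9.94 and 13.60 FPKM, which overlapped both other groups.

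**Figure D4:**
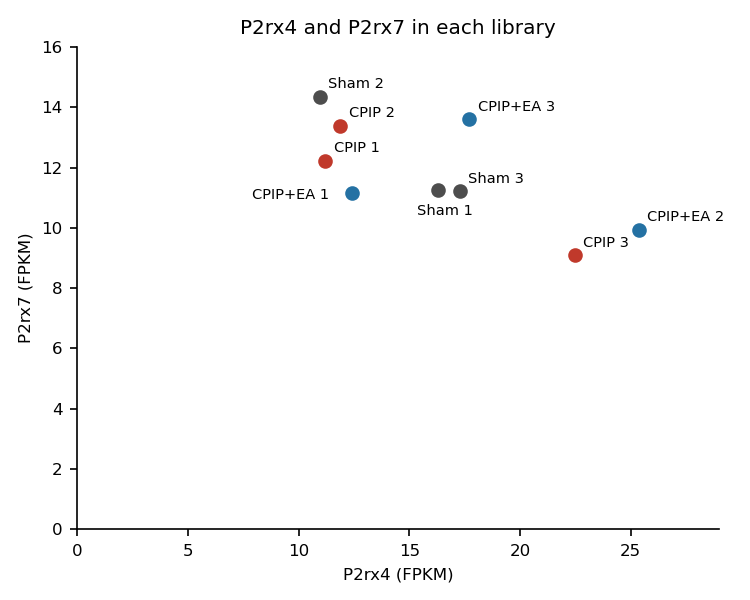
P2rx7 FPKM (vertical axis) against P2rx4 FPKM (horizontal axis) in the 9 DRG libraries, 1 labelled point a library. The libraries with the highest P2rx4 (25.36 and 22.49) have the lowest P2rx7 (9.94 and 9.09), and neither gene sorts the libraries by group.

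P2ry14 measured 1.96, 2.29 and 1.29 FPKM in Sham, 2.19, 2.32 and 1.63 FPKM in CPIP and 1.56, 1.48 and 2.23 FPKM in CPIP+EA, and the groups overlapped in every comparison. P2ry1 had log2 fold changes of -0.04, -0.01 and -0.05 in CPIP against Sham, CPIP+EA against CPIP and CPIP+EA against Sham. Whether reads were counted by strand is not given in the sources used here, so a part of the reads over overlapping genes may have been counted for the partner gene. In the RefSeq annotation P2rx2 overlaps Lrcol1, P2rx3 overlaps Ssrp1, P2rx4 overlaps Camkk2, P2rx6 overlaps Lrrc74b, P2ry2 overlaps Fchsd2, and P2ry12 and P2ry14 both overlap Med12l, while P2rx5, P2rx7 and P2ry1 overlap none. Lrcol1 was at most 0.08 FPKM in any library. Camkk2 lay between 4.61 and 6.98 FPKM, and its highest libraries, CPIP+EA replicate 2 (6.98 FPKM) and CPIP replicate 3 (6.56 FPKM), were also those with the highest P2rx4. Ssrp1 lay between 30.01 and 32.97 FPKM, Lrrc74b between 1.60 and 2.90 FPKM and Fchsd2 between 7.40 and 8.76 FPKM, none of them with an unadjusted limma p under 0.05 in any comparison. Med12l lay between 4.13 and 5.41 FPKM, a range that overlapped that of P2ry12 (2.80 to 4.84 FPKM) and lay above that of P2ry14, with a log2 fold change of 0.09 between CPIP+EA and CPIP.

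The other P2 receptors in the table were at low levels and 0 of the 6 were called in any comparison. P2rx1, the channel of platelets and smooth muscle, averaged 0.652 FPKM, P2ry4 0.95 FPKM, P2ry10 0.16 FPKM, P2ry13 1.18 FPKM and Gpr17 1.32 FPKM. P2ry6, a UDP receptor that neighbours P2ry2, measured 1.42, 1.40 and 1.22 FPKM in Sham, 1.29, 2.50 and 2.54 FPKM in CPIP and 2.37, 1.43 and 2.37 FPKM in CPIP+EA. Its log2 fold change for the mean of CPIP and CPIP+EA against Sham was 0.45, with an adjusted limma p of 0.420.

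Among 7 genes of ATP release, 1 was called, Panx1, which encodes the pannexin channel through which ATP leaves cells. Panx1 measured 5.50, 5.75 and 5.09 FPKM in Sham, 8.56, 9.10 and 8.86 FPKM in CPIP and 9.71, 9.28 and 7.63 FPKM in CPIP+EA. All 6 libraries of rats with CPIP were above all Sham libraries, as for P2rx2. Against Sham it had a log2 fold change of 0.65 in CPIP (SE 0.10, limma, adjusted p = 0.0198) and of 0.65 in CPIP+EA (limma, adjusted p = 0.0137), and it rose by 0.65 for the mean of both (limma, adjusted p = 0.00582). That last call held in 6 of 19 alternatives, with adjusted p-values of 0.00155 to 0.0372. The vesicular nucleotide transporter Slc17a9 stayed low, at 0.663 ± 0.258, 0.383 ± 0.163 and 0.56 ± 0.26 FPKM (SD, n = 3 each) in Sham, CPIP and CPIP+EA. Panx2, at 29.7, 25.5 and 25.4 FPKM in the same order, had an adjusted limma p of 0.400 for the mean of CPIP and CPIP+EA against Sham.

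Of 8 tested genes for the breakdown of extracellular nucleotides, 0 were called, and 2 were lower at an unadjusted limma p under 0.05 in each comparison with Sham. Over all genes tested, 4.06% were lower in this way in CPIP, 5.63% in CPIP+EA and 5.42% for the mean of both. Entpd3, an ectonucleotidase of sensory neurons, measured 24.96, 21.77 and 20.82 FPKM in Sham, 16.02, 18.10 and 17.99 FPKM in CPIP and 19.25, 17.57 and 16.03 FPKM in CPIP+EA, with a log2 fold change of -0.36 in CPIP (limma, adjusted p = 0.188). Acpp, which encodes the prostatic acid phosphatase that makes adenosine in nociceptors, measured 59.71, 61.81 and 55.43 FPKM in Sham, 43.61, 47.71 and 49.46 FPKM in CPIP and 50.03, 38.91 and 34.15 FPKM in CPIP+EA. For Acpp the log2 fold change was -0.33 in CPIP (limma, adjusted p = 0.468) and -0.53 in CPIP+EA (limma, adjusted p = 0.0871). Each of the Sham libraries was above all others for both enzymes.

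**Figure D5:**
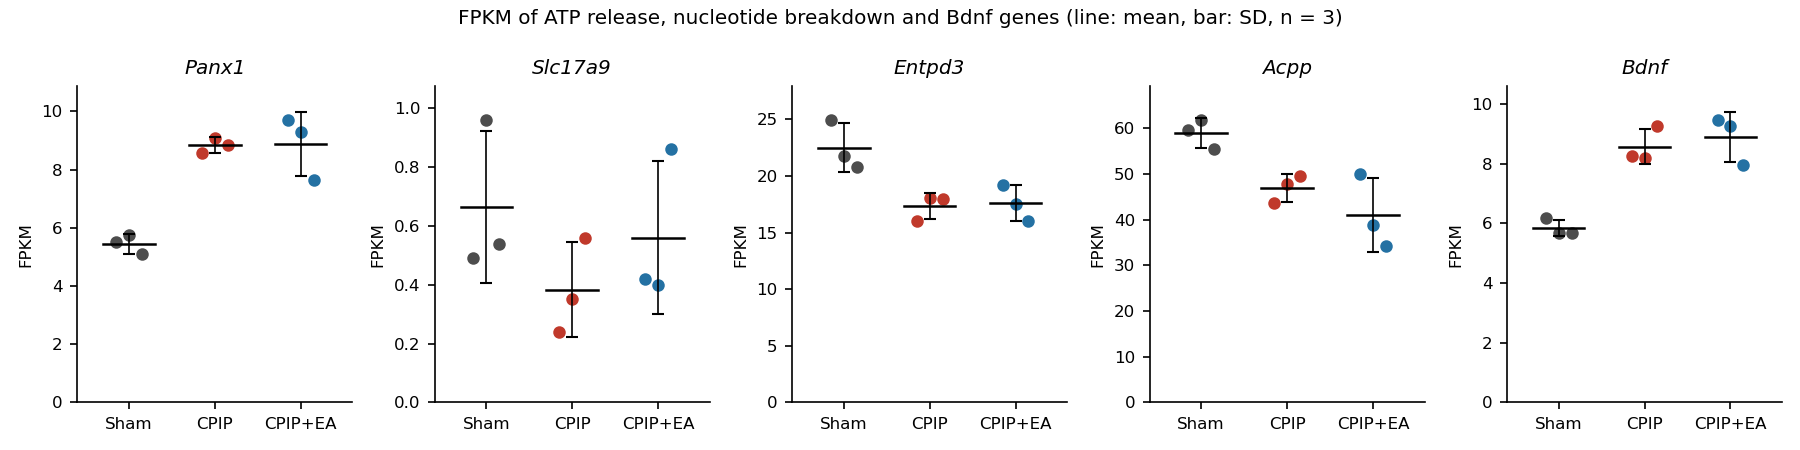
FPKM (vertical axes, each starting at 0) of Panx1, Slc17a9, Entpd3, Acpp and Bdnf in the 9 DRG libraries, with 1 point a library, a line at the mean and a bar for the SD (n = 3). Panx1 and Bdnf are higher in every CPIP and CPIP+EA library than in Sham (5.09 to 5.75 and 5.68 to 6.16), Entpd3 and Acpp are lower, and the Slc17a9 groups overlap.

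Downstream of the channels, 0 of 7 inflammasome genes linked to P2X7 reached an unadjusted limma p under 0.05 in any comparison, Nlrp3 among them with a log2 fold change of 0.35 between CPIP and Sham (limma, adjusted p = 0.639). Among 5 genes linked to P2X4, Bdnf, the neurotrophin released on P2X4 activation in microglia and also made by sensory neurons, had 5.84 ± 0.277 FPKM in Sham, 8.57 ± 0.592 FPKM in CPIP and 8.89 ± 0.828 FPKM in CPIP+EA (SD, n = 3 each). Its log2 fold change was 0.51 in CPIP (limma, adjusted p = 0.0428) and 0.56 in CPIP+EA (limma, adjusted p = 0.0180) and was not called. Irf8 and Irf5, transcription factors that drive P2rx4 in microglia, had log2 fold changes of 0.34 and 0.26 between CPIP and Sham, with adjusted limma p-values of 0.761 and 0.753. Of 13 genes of P2Y G protein signalling, 0 were called and Gna14 alone reached an unadjusted limma p under 0.05, with a log2 fold change of -0.37 between CPIP+EA and Sham. The medians of the 13 genes were -0.05, -0.03 and -0.12 in CPIP against Sham, CPIP+EA against CPIP and CPIP+EA against Sham, beside -0.01, 0.01 and 0.00 over all genes tested.

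In whole ganglia, fewer cells of a type and less RNA per cell cannot be told apart. Of the markers of injured neurons, 6 of 6 (Atf3, Sox11, Gap43, Gal, Npy and Sprr1a) were called higher in CPIP and in CPIP+EA against Sham. Over all genes, 0.355% and 0.483% were called in either direction. P2rx2 was called in neither comparison, and a link between it and these markers was not tested. The summed level of the injured neuron markers was 145.6 to 152.8 FPKM in Sham, 735.0 to 853.5 FPKM in CPIP and 802.0 to 907.3 FPKM in CPIP+EA. Of 5 pan-neuronal markers 0 were called, but for the mean of CPIP and CPIP+EA against Sham 2 were higher, Tubb3 (0.43 on the log2 scale) and Prph (0.32), and 2 lower, Rbfox3 (-0.44) and Snap25 (-0.17), at an unadjusted limma p under 0.05, beside 6.38% of all genes higher and 5.42% lower in this way. As for P2rx2, all 6 libraries of rats with CPIP were above all Sham libraries for Tubb3 and Prph, and as for P2rx5 and P2rx6, all were below them for Rbfox3 and Snap25. Between CPIP and Sham, 4 of 4 peptidergic nociceptor markers and 4 of 5 large-fiber markers had fold changes below 0, and 0 were called. Tac1 (-0.23) and Ntrk3 (-0.23) had an unadjusted limma p under 0.05, beside 4.06% of all genes lower. For Tac1, Trpv1, Pvalb and Ntrk3 every CPIP library lay below every Sham library, beside 7.9% of all genes. Spp1 lay above in the same way, and a link to P2rx5 or P2rx6 was not tested. Markers of nonpeptidergic nociceptors, the main home of P2X3, summed to 207.9 to 237.1 FPKM in Sham, 203.1 to 220.6 FPKM in CPIP and 149.4 to 221.2 FPKM in CPIP+EA, and 0 of 8 were called. At an unadjusted limma p under 0.05, 2 (Gfra2 and Scn11a) were lower in CPIP+EA against Sham, beside 5.63% of all genes. In CPIP+EA against CPIP 1 (Gfra2) was lower in this way, beside 2.07% of all genes. The lowest sum of the nonpeptidergic markers belonged to CPIP+EA replicate 3, the library with the lowest P2rx3, which also had the highest summed neutrophil markers (625.0 FPKM beside 33.8 to 263.4 FPKM in the CPIP libraries). The same library had the highest summed erythroid markers (2346.9 FPKM beside 244.8 to 794.5 FPKM in CPIP and 448.4 to 1403.4 FPKM in Sham) and the highest summed macrophage markers (195.5 FPKM). The erythroid sum rests on the 3 of 5 listed genes that were in the table. Against Sham, 8 of 10 macrophage markers had fold changes above 0 in CPIP and in CPIP+EA, and 0 were called. Of these, 1 in CPIP and 3 in CPIP+EA were higher at an unadjusted limma p under 0.05, beside 4.61% and 6.59% of all genes. The means of their summed level were 104.8, 125.7 and 143.3 FPKM in Sham, CPIP and CPIP+EA. As for P2rx2, all 6 libraries of rats with CPIP were above all Sham libraries for Cx3cr1 (0.54 on the log2 scale in CPIP against Sham, limma, adjusted p = 0.219) and for Aif1 (0.15, adjusted p = 0.912). The other 8 macrophage markers overlapped Sham here, and 7.27% of all genes were apart in either direction. Cd163 (-0.49) and Mrc1 (-0.25) were lower in CPIP against Sham. Of the satellite glia markers, which summed to 3618 to 3747 FPKM in Sham, Apoe alone was above Sham in all 6 libraries. Beside P2ry12, which was lower in CPIP+EA than in CPIP, the summed macrophage markers were 110.0 to 137.2 FPKM in CPIP and 104.5 to 195.5 FPKM in CPIP+EA, those of satellite glia 3780 to 4118 FPKM and 4004 to 4203 FPKM, most of it Apoe, and those of Schwann cells 6571 to 11760 FPKM and 4598 to 9153 FPKM. Of the 6 satellite glia markers 0 were called, and 2 had an unadjusted limma p under 0.05, Glul with a log2 fold change of -0.21 and Fabp7 with 0.71 in CPIP+EA against CPIP, with CPIP+EA libraries all below and all above the CPIP libraries. The median of the 6 was -0.02. All 5 Schwann cell markers had fold changes below 0 in CPIP+EA against CPIP (median -0.48 on the log2 scale), and 1, Prx, had an unadjusted limma p under 0.05. No marker of these lists was at 0 in all libraries, and the part of these cells in the receptor values was not tested.

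By the likeness of their pattern over the 9 libraries, P2rx2 was closest to Srxn1 (Pearson r = 0.985), an enzyme of the oxidative stress response, and Tubb2b (r = 0.983), a tubulin of growing neurites, among 13913 genes. As a description, 192 genes had an r above 0.9 with P2rx2, 45 with P2rx5, 37 with P2rx3 and 29 with P2ry2, and between 5 and 12 with P2rx4, P2rx6, P2rx7, P2ry1, P2ry12 and P2ry14. P2rx3 was closest to Tshz2 (r = 0.970) and Prrt2 (r = 0.969), P2rx5 to Zfp612 (r = 0.980) and LOC300308 (r = 0.960), and P2rx6 to Rad51d (r = 0.982) and LOC102548695 (r = 0.950). P2rx4 was closest to Tpgs1 (r = 0.935) and Arl6ip4 (r = 0.926), and P2rx7 to Nt5dc1 (r = 0.959) and Baiap2 (r = 0.951). The P2Y genes were closest to Sfpq (r = 0.951) and Aamdc (r = 0.933) for P2ry1, Dpy19l3 (r = 0.982) and Mprip (r = 0.964) for P2ry2, Arsb (r = 0.923) and Ltbp3 (r = 0.918) for P2ry12, and Map3k6 (r = 0.956) and Kcnk6 (r = 0.940) for P2ry14. The points share the libraries and the group differences, so these values carry no p.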

How the data were processed

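RNA-Seq of 9 libraries (Sham, CPIP and CPIP+EA, 3 rats each) was analysed. The authors filtered reads with SOAPnuke 1.5.2, dropping those with adaptors, low quality or over 10% unknown bases. The authors deposited 1 FPKM value, with 2 decimals, for each gene and library. Reads were single-end of 50 bases from a BGISEQ-500 per the methods, while the labels name an Illumina protocol. The aligner, genome build and annotation are not given in the sources used here. The deposited table also holds Q-values, P-values and log2 ratios from the authors' own comparisons, which were not used. FPKM carries no read counts, so the number of libraries limits the precision.

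Differences were tested with limma 3.58.1 (R 4.3.3) on log2(FPKM + 0.5), using eBayes with a mean-variance trend, all 9 libraries in a single model, a mean FPKM of at least 0.1, two-sided p-values and Benjamini-Hochberg adjustment over all genes. A call needed an adjusted p under 0.01 and a fold of 1.5 or more, or 0.667 or less, as in the study's methods. All 10 receptor genes are named. Of each pathway list, up to 3 genes with the smallest p in a comparison could be named, any gene of the other P2 receptors, and for likeness the 2 closest genes of a mean FPKM of at least 1. The genes, lists and tests were chosen with earlier results of these data known. Entpd8 was not tested and P2ry10b did not match a gene of the table. Tested on simulated data with 17218 genes, the fit called 70 of 100 genes changed 2-fold and 94 of 100 changed 4-fold between CPIP and Sham, with 2 of the unchanged genes of the same simulated table called there and 0 genes between CPIP+EA and Sham, where none was changed. The changed genes had a mean FPKM of at least 1, and the noise was normal and independent for each value. Changes below 2-fold, such as those of the receptor genes, were not simulated. Alternatives changed the pseudocount (0.1 or 1), the filter (none, or a mean FPKM of 1), the scaling (TPM, quantiles or medians), the trend (robust or none), the threshold and the samples (a replicate block, only the groups compared, or 1 library left out). Gene order and promoters came from RefSeq (GRCr8), and all 10 genes matched by identifier and symbol. Plots used matplotlib 3.10.9, and tables pandas 2.3.3 and numpy 2.4.6 under Python 3.11.15.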

Additional observations from a re-analysis of the deposited data

How the results depend on the processing

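Of 790 values of the 40 receptor fold changes under the alternatives, 737 kept their direction and their side of the threshold, 15 lost and 1 gained the call of P2rx2, and 37 turned sign. The log2 fold change of P2rx2 kept its sign in every alternative run, and the cause of the lost calls was not tested. The number of genes past the threshold was 61 between CPIP and Sham, and it was 40 without a filter, 26 with the replicate block and 122 at an adjusted p under 0.05 with no fold limit. Between CPIP+EA and Sham it was 83, and it was 55 without a filter, 42 with the replicate block, 51 with only the groups compared and 226 at an adjusted p under 0.05 with no fold limit. For the mean of CPIP and CPIP+EA against Sham it was 103, and it was 63 with the replicate block and 274 at an adjusted p under 0.05 with no fold limit. Between CPIP+EA and CPIP it was 0, and it was 1 with only the groups compared. With 1 library left out the counts ran from 30 to 62 for CPIP against Sham, lowest without Sham replicate 2 or CPIP replicate 3, from 0 to 2 for CPIP+EA against CPIP, from 35 to 82 for CPIP+EA against Sham, lowest without CPIP+EA replicate 2, and from 55 to 107 for the mean of both against Sham, lowest without Sham replicate 2.

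Of 9 pairs of libraries with the same replicate number, 2 had deviations that correlated above 0.1 (r from -0.236 to 0.297). The pairs with different numbers had r from -0.223 to 0.28, and 2 of 9 libraries had their highest correlation with a library of their own number. With 3 libraries a group, these values cannot decide whether the numbers pair the libraries. With the number as a block, the adjusted limma p of P2rx2 was 0.146 between CPIP and Sham and 0.0416 for the mean of both against Sham.

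Signs turned for small differences, none of them called. Between CPIP+EA and CPIP, P2rx3 was -0.0075 with quantile normalization and -0.0067 on a TPM scale, P2rx7 was -0.0126 on a TPM scale, and P2ry1 was 0.0030 with quantile normalization and 0.0050 with median centring. With 1 library left out, the log2 fold changes of CPIP against Sham ran from -0.0078 to 0.0821 for P2rx3, from -0.3246 to 0.1626 for P2rx4, from -0.2005 to 0.0667 for P2rx7, from -0.2372 to 0.0435 for P2ry2, from -0.0440 to 0.1537 for P2ry12 and from -0.0514 to 0.2687 for P2ry14. Those of CPIP+EA against CPIP ran from -0.0846 to 0.1720 for P2rx3, from -0.0556 to 0.1821 for P2rx5, from -0.1509 to 0.1163 for P2rx7 and from -0.0205 to 0.0188 for P2ry1. Those of CPIP+EA against Sham ran from -0.0579 to 0.1987 for P2rx3, from -0.2020 to 0.0288 for P2rx7 and from -0.2304 to 0.0897 for P2ry14. For the mean of both against Sham they ran from -0.0156 to 0.1127 for P2rx3, from -0.0657 to 0.2562 for P2rx4, from -0.1462 to 0.0257 for P2rx7 and from -0.1409 to 0.1792 for P2ry14. No scaling moved the median of all genes by over 0.1 on the log2 scale.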
